A study of Mus musculus with 40 samples.

Results

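The genes described here are 9 markers by which adipose depots and adipocyte types are told apart: Tbx1, Tmem26, Tnfrsf9 and Cited1 as beige markers, Zic1 and Lhx8 as brown markers, Tbx15, Epsti1, and Tcf21 as a white marker. They were chosen by name, with no threshold on a measured value. They are 9 of the 21938 protein-coding genes of the mouse annotation. The measurement was H3K27ac, an acetyl mark on histone H3 that lies at active promoters and enhancers, mapped by chromatin immunoprecipitation and sequencing (ChIP-seq). Preadipocytes came from inguinal white adipose tissue (the subcutaneous fat of the groin) of 8- to 12-week-old C57BL/6 mice. They were either wild type (WT) or lacked both nucleosome-binding proteins HMGN1 and HMGN2 (Hmgn1-/- Hmgn2-/-, called DKO), a deletion carried by every cell of the mouse and not by adipocytes alone. Day 0 libraries are undifferentiated preadipocytes, and libraries of days 3, 6 and 9 were taken during culture toward brown-like adipocytes in both genotypes. That culture ran for 4 days with insulin, dexamethasone, IBMX, T3 and rosiglitazone, and then for 4 days with insulin and T3. Each of the 8 groups held 3 libraries, 24 in all. The study calls its replicates biological, and the labels do not say whether those of a group came from separate mice or cultures, so the p-values measure the spread between these libraries.

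Beige adipocytes are thermogenic cells that appear within white fat, whereas brown adipocytes form the classical brown depots and share an early lineage with muscle. The depots differ in developmental transcription factors, among them T-box, ZIC, LIM-homeobox and HOX genes, and these genes are widely used to say from which depot an adipocyte came. Tbx15 is a T-box factor of subcutaneous white, beige and brown fat. Tbx1 is a T-box factor, Tmem26 and Tnfrsf9 (the receptor CD137) are membrane proteins and Cited1 is a transcriptional coregulator, all of them used to mark beige cells. Zic1 (a zinc finger factor) and Lhx8 (a LIM-homeobox factor) mark classical brown fat, Tcf21 (a bHLH factor) marks white preadipocytes, and Epsti1 is an interferon-inducible gene that has served as a depot marker.

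For 4 members whose peaks carry the results below, the mm10 (GRCm38) genome sequence of RefSeq around the median peak summit is shown, 5′ to 3′ on the strand of the gene, so that the marked sequence can be read beside its values. Capitals mark a match to CCCNNGGG, the core of the binding sequence of EBF factors. The Tbx1 stretch lies in an intron at chr16:18585758-18586057 (minus strand, 55.3% G or C). The Lhx8 stretch lies in an intron at chr3:154329854-154330020 (minus strand, 61.7%) and begins where the untranslated sequence before it ends. The Tbx15 stretch lies at a coding exon at chr3:99253910-99254209 (plus strand, 64%) and holds 23 CpG dinucleotides. The Epsti1 stretch lies in a coding exon at chr14:77904486-77904648 (plus strand, 65%).
Tbx1: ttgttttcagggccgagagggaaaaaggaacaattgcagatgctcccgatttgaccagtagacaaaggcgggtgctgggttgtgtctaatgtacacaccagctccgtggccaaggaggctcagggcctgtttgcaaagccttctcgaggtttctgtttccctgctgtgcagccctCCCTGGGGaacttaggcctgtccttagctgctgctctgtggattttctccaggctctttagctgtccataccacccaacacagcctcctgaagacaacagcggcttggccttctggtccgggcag
Lhx8: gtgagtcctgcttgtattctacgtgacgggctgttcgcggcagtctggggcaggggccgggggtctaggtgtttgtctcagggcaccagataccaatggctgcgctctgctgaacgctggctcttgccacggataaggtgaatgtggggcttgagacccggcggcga
Tbx15: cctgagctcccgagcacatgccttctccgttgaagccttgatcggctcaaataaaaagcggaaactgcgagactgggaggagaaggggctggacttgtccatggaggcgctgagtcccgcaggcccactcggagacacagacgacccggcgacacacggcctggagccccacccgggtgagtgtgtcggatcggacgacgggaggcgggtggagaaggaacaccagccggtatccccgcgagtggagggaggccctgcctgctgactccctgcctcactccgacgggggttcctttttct
Epsti1: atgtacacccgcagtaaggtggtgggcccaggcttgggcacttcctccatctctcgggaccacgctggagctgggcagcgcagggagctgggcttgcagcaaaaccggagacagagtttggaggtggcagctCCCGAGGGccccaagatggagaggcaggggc

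A CCCNNGGG match, which reads the same on both strands, stood in the Tbx1 and Epsti1 stretches (CCCTGGGG and CCCGAGGG). It stood in 10.2% of 91967 H3K27ac regions of the same libraries in windows of 300 bases, and in 5.74% in windows of 163 bases. Matches to TGACTCA or TGAGTCA (AP-1), TTGCNNAA (C/EBP), AGGTGTGA (T-box) and CAGCTG (E-box) were looked for on both strands as well and stood in none of the 4 stretches. Over all regions in 300-base windows these stood in 5.81%, 11.3%, 1.2% and 18.1%. In windows of 167 bases, as for Lhx8, they stood in 3.1%, 6.27%, 0.669% and 10.5%. In windows of 163 bases, as for Epsti1, the shares were 3.2%, 6.16%, 0.639% and 10.2%. A match of letters is a description of the window and not a bound site.

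The measure used for each gene was the length under H3K27ac peaks, in kb, between 5 kb upstream of the gene and its end. Peaks were called by the authors in each library separately, and the lists held only peaks with a −log10 q of at least 2, so that a gene without a peak is not shown to lack the mark. The libraries held 47448 to 115923 peaks covering 20.7 to 96.4 Mb, and the covered length followed genotype and day. In WT it was 46.1 to 54.6 Mb at day 0, 31.1 to 52.9 Mb at day 3, 55.5 to 60.4 Mb at day 6 and 48.2 to 59.6 Mb at day 9. The DKO libraries covered 47.7 to 96.4, 29.9 to 41.8, 20.7 to 36.3 and 61.2 to 68.8 Mb. DKO libraries thus covered less than every WT library at day 6 and more at day 9, and the part of this in the genotype differences of single genes is given below by scaling each library to its covered length. 2 libraries stood apart. DKO day 0 replicate 2 had no peak under 440 bp against 155 to 165 bp elsewhere, and WT day 3 replicate 3 had 4.5 background reads per kb against 8.61 to 12.8. Hmgn2 held a peak in 12 WT and 0 DKO libraries, which checks the labels, while Hmgn1 held one in all 24 (1.64 kb in WT, 1.88 kb in DKO) and so checks nothing. In bulk samples, fewer cells of a type and less mark per cell cannot be told apart.

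The members ranged from genes covered in every library to genes with no peak at all. Tbx15 and Tnfrsf9 held a peak in all 24 libraries, Lhx8 in 22, Tbx1 and Epsti1 in 16 each, Tmem26 in 4 and Cited1 in 2, and Zic1 and Tcf21 in 0. Of the protein-coding genes, 15204 held a peak in at least 3 libraries and entered the tests, among them 6 members, while Cited1, Zic1 and Tcf21 did not. Per length of window, Tbx15 was the member with most of its window covered, on average 14.6% (7.51% to 19.1% over libraries), which is above 79.7% of the tested genes. Tnfrsf9 lay near the middle, above 54.3% of them, Tbx1 and Lhx8 were above 37.9% and 37.5%, and Epsti1, Cited1 and Tmem26 were above only 5.64%, 4.64% and 1.59%. The median over the tested genes was 5.40%.

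**Figure D1:**
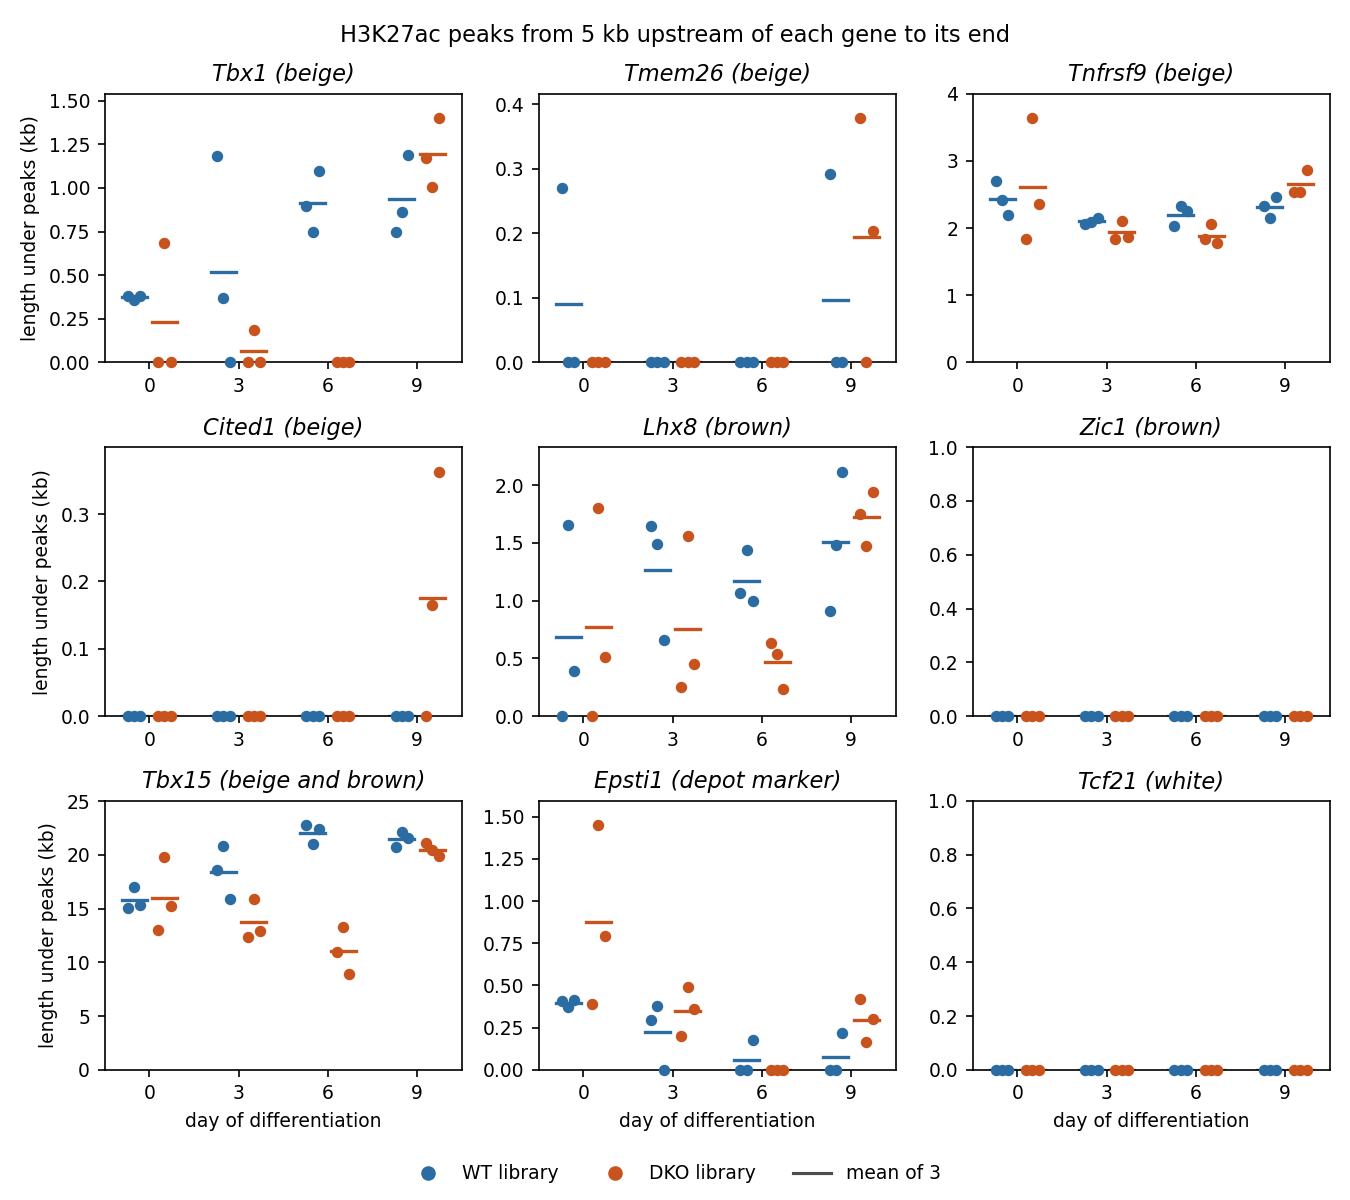
Length under H3K27ac peaks (kb, linear axis, one scale per panel) of each of the 9 members in each library by day, with WT and DKO libraries as separate points and a short line at the mean of 3 libraries. Tbx15 in DKO is lowest at day 6 (11.1 kb against 22.1 kb in WT) and returns to 20.5 kb at day 9, and Zic1 and Tcf21 sit at 0 throughout.

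Tbx15 carried the broadest mark of the members and, in kb under the peaks as deposited, had the largest genotype difference among them. Relative to their WT levels, Tbx1 and Epsti1 differed more. Its gene lies at chr3:99240381-99354259 on the plus strand, with Wars2 and the antisense gene Gm43120 reaching into its window. At day 0 the 3 WT libraries had 15.0, 17.0 and 15.4 kb under peaks, and the DKO libraries 13.0, 19.8 and 15.3 kb. At day 3 WT had 18.6, 20.8 and 15.9 kb and DKO 12.3, 15.9 and 13.0 kb. The groups overlapped at day 0 and lay just apart at day 3, where the highest DKO library, 15.86 kb, was next to the lowest WT library, 15.90 kb. At day 6 WT had 22.7, 21.02 and 22.4 kb and DKO 10.96, 13.3 and 8.93 kb. At day 9 WT had 20.7, 22.1 and 21.6 kb and DKO 21.1, 20.5 and 19.9 kb. Every DKO library at day 6 was thus well below every WT library, and by day 9 the groups overlapped again.

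In means, Tbx15 in DKO was 0.215 kb above WT at day 0 (16.0 ± 3.43 against 15.8 ± 1.08 kb, SD, n = 3; exact permutation p = 0.9) and 4.72 kb below at day 3 (13.7 ± 1.88 against 18.4 ± 2.46 kb; exact p = 0.1). At day 6 it was 11 kb below (11.1 ± 2.18 against 22.1 ± 0.914 kb; exact p = 0.1) and at day 9 it was 0.980 kb below (20.5 ± 0.592 against 21.5 ± 0.719 kb; exact p = 0.2). The smallest two-sided p that 3 against 3 libraries allow is 0.1. Averaged over the 4 days, Tbx15 was covered over 19.4 kb in WT and over 15.3 kb in DKO, a difference of -4.12 kb with p = 0.00493 in an exact permutation test within days. Adjusted by Benjamini-Hochberg over the 15204 tested genes it was 0.240, so the difference did not pass 0.05. No member passed this test, where 0.125% of all tested genes were called lower in DKO and 0.0263% higher, and 3 of the 6 members (Tbx15, Tbx1 and Epsti1) had an unadjusted p under 0.05, as 9.86% of tested genes did. Without DKO day 0 replicate 2, the library of wide peaks, the Tbx15 difference was -4.59 kb with an adjusted exact permutation p of 0.0330, in a fit that called 1.3% of genes lower in DKO.

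The day 6 difference of Tbx15 was one that most genes shared. At day 6, 59.6% of tested genes had all DKO libraries below all WT libraries, and the library totals differed in the same direction. Scaled to the covered length of each library, the Tbx15 difference at day 6 was -0.765 kb and the groups overlapped (exact permutation p = 0.7), beside a median of +0.235 kb over all tested genes. Scaled in this way, the DKO libraries lay below all WT libraries at day 0 (12.6 against 15.9 kb) and at day 9 (16.1 against 19.8 kb) instead, each with exact p = 0.1, as 10.6% and 13.5% of tested genes did. The scaled difference over 4 days was -2.34 kb (adjusted exact permutation p = 0.0508). Scaling thus kept the sign of the 4-day difference and of those at days 3, 6 and 9, turned that at day 0 from +0.215 to -3.34 kb, and moved the days without overlap. At day 0, DKO replicate 2, the library of wide peaks, was the highest unscaled (19.8 kb) and the lowest scaled (10.4 kb). The other DKO libraries had 13.0 and 15.3 kb unscaled and 13.9 and 13.4 kb scaled. With each peak set to 250 bp either side of its summit the day 6 difference turned to +0.589 kb, and by number of peaks to +2.33 peaks.

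**Figure D2:**
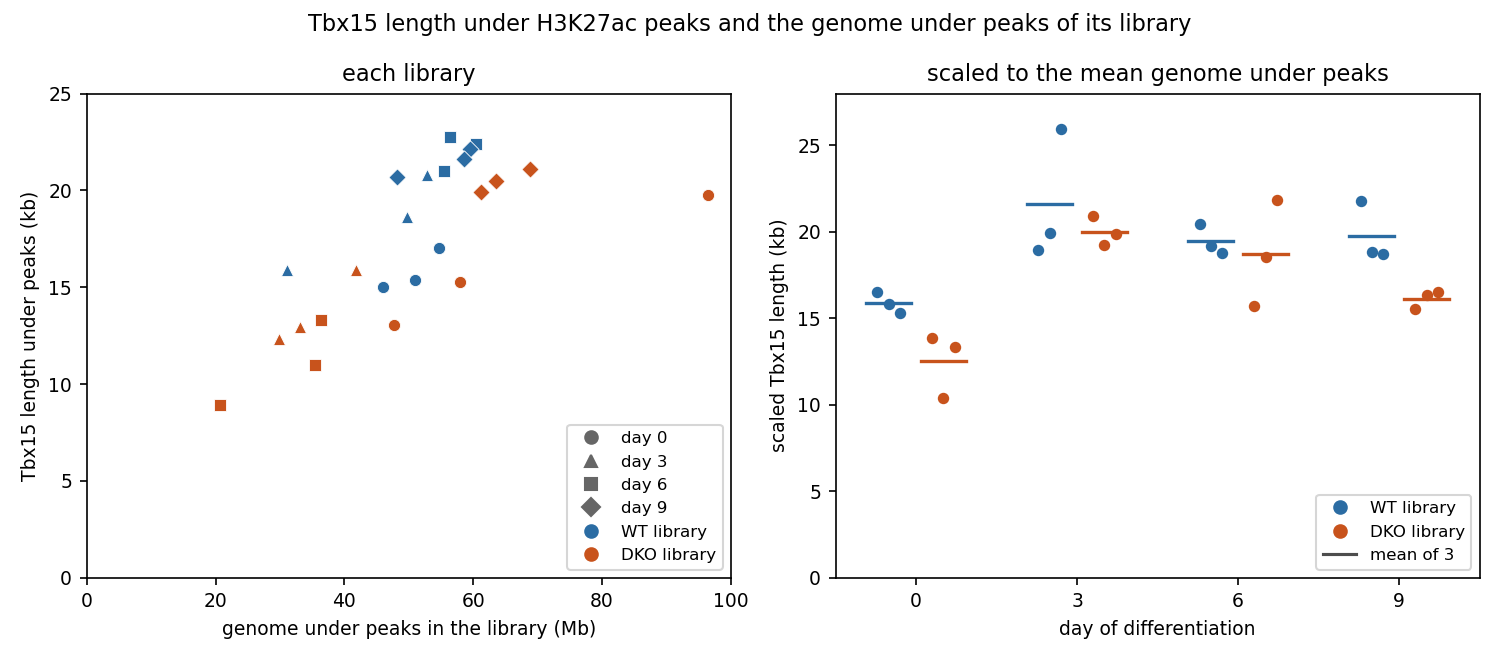
Left, Tbx15 length under peaks (kb) against the genome under peaks (Mb) of each library, with colour for genotype and marker shape for day; right, the Tbx15 length scaled to the mean genome under peaks (kb) by day, with short lines for the mean of 3 libraries. The day 6 DKO libraries, at 8.93 to 13.3 kb, are low on both axes of the left panel, and on the right the genotypes do not overlap at days 0 and 9.

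The height of the Tbx15 peaks gave a measure that is not a length. A library without a peak in a gene's window counted as a fold of 0, which did not occur for Tbx15. The highest fold enrichment over background in the window was 28.9 to 32.7 in the WT libraries at day 9 and 22.0 to 24.9 in the DKO libraries, which did not overlap (exact permutation p = 0.1), as in 7.2% of tested genes. The day 6 means were 24.6 ± 2.74 for WT and 18.0 ± 2.32 for DKO (SD, n = 3), again without overlap, as in 45.2% of tested genes. Over 4 days the difference was -4.03 in fold units (adjusted exact permutation p = 0.0497), in a test that called 5.04% of genes lower in DKO and where the median of all tested genes was -1.04. By rank of its −log10 q, the best Tbx15 peak was among the top 0.138% to 7.27% of the peaks of its library, with a median of 1.70%.

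From day 0 to day 9 Tbx15 rose in both genotypes. The change was +5.67 kb in WT and +4.47 kb in DKO, +5.07 kb on average, with an adjusted exact permutation p of 0.0203, and the groups of days 0 and 9 did not overlap in either genotype. The rise was +1.34 kb (adjusted 0.908) among the 20000 highest peaks of each library and +4.91 kb (adjusted 0.0512) among peaks with −log10 q of at least 5, and the call was also lost with summit windows (+3.14 kb), by number of peaks (+6.17) and within 1 kb of the start (+0.0485 kb). Its highest fold rose by 10.9 units over the same days (adjusted exact permutation p = 0.0225). The change itself was not detectably different between genotypes (exact permutation p = 0.61), while the course between the ends differed in value on the unscaled length: WT had 22.1 kb by day 6, and DKO went up by 9.44 kb between days 6 and 9 as its library totals went up. Scaled to covered length, the DKO means were 18.7 kb at day 6 and 16.1 kb at day 9. The test of whether the genotype difference varied among days gave an adjusted p of 0.15 (one-sided permutation), and no member passed it, where 17.1% of tested genes did.

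Within the Tbx15 window the mark lay in 23 separate regions, of which 2 were called in all 24 libraries. One is at the gene start (chr3:99239787-99243244) and the other is 17.7 kb wide (chr3:99246828-99264545), spans the second annotated start and holds the sequence shown above, with a median highest fold of 21.3. At day 6 the wide region was covered over 16.4 kb in WT and 9.26 kb in DKO, the start region over 3.00 and 1.51 kb and all the other regions together over 2.67 and 0.282 kb. These 3 parts were each lower in DKO without overlap (exact permutation p = 0.1 for each). Over whole windows, 59.6% of tested genes were lower in this way. Lengths and counts in this paragraph are unscaled. Day 6 libraries covered 20.7 to 36.3 Mb in DKO and 55.5 to 60.4 Mb in WT. Shares of other genes with such parts or pieces were not computed. In the wide region the DKO signal was also in more pieces at day 6, with 12 to 17 peaks against 2 to 6 in WT, and its widest peak was 3.95 kb against 8.21 kb. Of the 21 further regions, 7 to 9 were called in each WT library at day 6 and 0 to 3 in each DKO library, against 7 to 11 and 7 at day 9.

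Particular regions of Tbx15 showed this course by presence and absence. A region in the gene body at chr3:99276269-99277215 was called in no library at day 0 and in 1 WT and 0 DKO libraries at day 3. It was called in 3 WT and 0 DKO libraries at day 6 and in all 6 at day 9. Another at chr3:99245625-99246741 was called in 1 WT and 1 DKO library at day 0 and in 3 WT and 2 DKO libraries at day 3. It was called in 3 WT and 0 DKO libraries at day 6 and in all 6 at day 9, so DKO held it in some libraries before day 6. Both are given for their day 6 pattern, and both were low, with median highest folds of 4.85 and 6.37. Over all members, 4 of the 22 regions called at day 6 were in all 3 WT and no DKO library, the others being chr3:99298371-99298789 in Tbx15 and chr16:18585176-18586604 in Tbx1, and 0 showed the reverse. Of 87358 regions called anywhere at day 6, 8.82% were of the first kind and 0.0756% of the second.

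**Figure D3:**
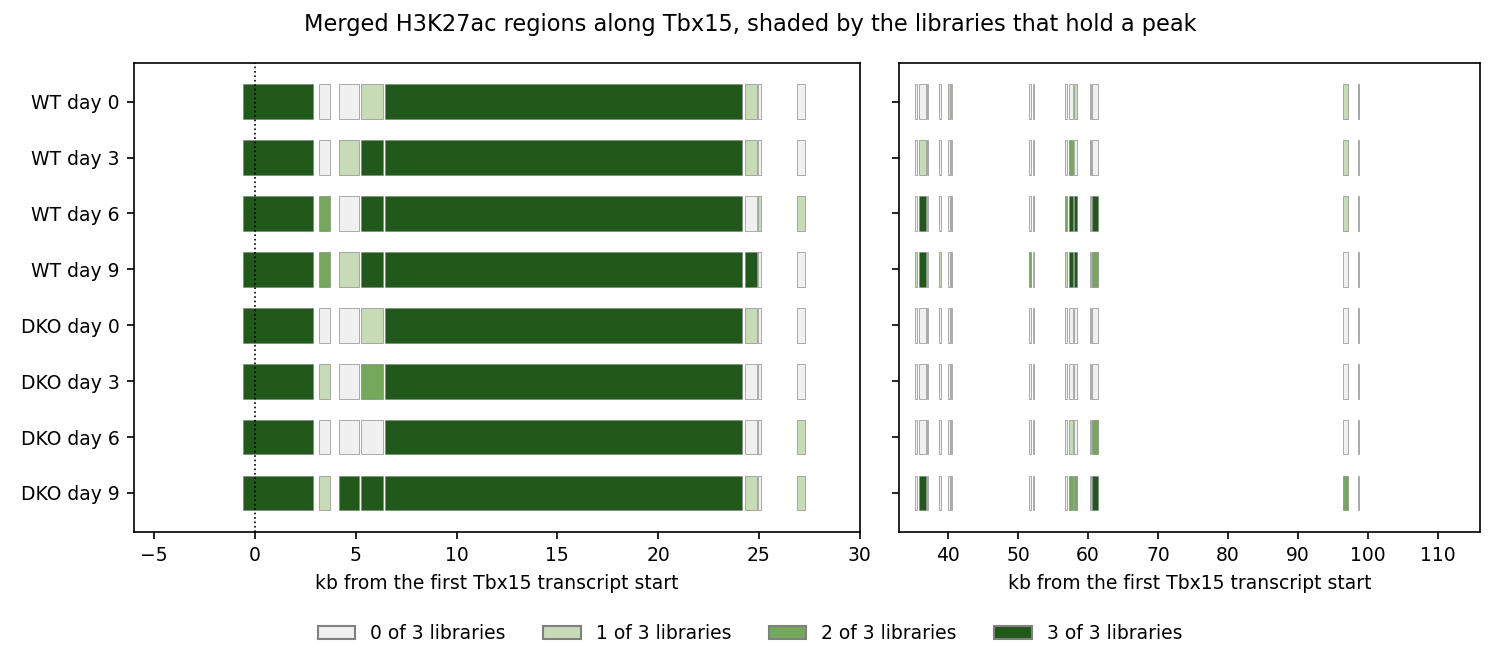
Regions under H3K27ac peaks in the Tbx15 window by distance from the first transcript start (kb), in 2 stretches of the gene, with a row for each of the 8 groups and shading for how many of its 3 libraries held a peak in each region. The wide region was called in all 24 libraries, while the region about 36.1 kb from the start is shaded for 3 of 3 libraries in WT at day 6 and in both genotypes at day 9.

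Tbx1, a beige marker at chr16:18580979-18590671 on the minus strand, had a small intronic region. In DKO it was called in 1 library each at days 0 and 3, in 0 at day 6 and in 3 at day 9. At day 0 the WT libraries had 0.381, 0.355 and 0.381 kb and the DKO libraries 0, 0.686 and 0 kb, the 0.686 kb being the library of wide peaks. At day 3 WT had 1.181, 0.371 and 0 kb, the 0 being the shallowest library, and DKO had 0, 0.188 and 0 kb. So WT carried the region in most early libraries and DKO in few. At day 6 WT had 0.895, 0.749 and 1.096 kb against 0 kb in each DKO library, and at day 9 WT had 0.749, 0.862 and 1.19 kb and DKO 1.17, 1.01 and 1.40 kb. The day 6 groups did not overlap (-0.913 kb, exact permutation p = 0.1), and the day 9 groups did. Since lengths of 0 stay 0 when scaled, scaling cannot show whether the day 6 difference goes beyond the smaller covered length of those DKO libraries, and the part of the latter was not tested.

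Tbx1 rose from day 0 to day 9 by 0.763 kb (+0.561 kb in WT, +0.965 kb in DKO, adjusted exact permutation p = 0.0203), a call lost with summit windows (adjusted 0.0545), 50 kb either side (adjusted 0.0518) and number of peaks (adjusted 0.0621). Its genotype difference over 4 days was -0.313 kb (0.684 kb in WT, 0.371 kb in DKO; exact permutation p = 0.0434, adjusted 0.485) and -0.352 kb when scaled (adjusted 0.0538). Peaks stood within 1 kb of one of its 4 annotated starts, in 10 WT and 4 DKO libraries, and near none of the other 3. These were low peaks: fold 3.42 to 8.49, 12 to 27 reads at the summit, and rank from 25.1% to 94.4% of the library's peaks.

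Tmem26 (chr10:68723646-68782650, plus strand) and Cited1 (chrX:102247381-102252181, minus strand) were barely marked. Tmem26 had 0.271 kb in WT day 0 replicate 1, 0.292 kb in WT day 9 replicate 1, and 0.379 and 0.203 kb in DKO day 9 replicates 1 and 3, and 0 in the other 20 libraries. Cited1 had 0.165 and 0.363 kb in DKO day 9 replicates 2 and 3 and 0 in the other 22. For both genes the groups overlapped at each day, the peaks were low (fold 4.08 to 5.30 and 4.42 to 5.00), and the summits held 13 to 19 and 11 to 13 reads. Tmem26 did not pass a test by genotype (+0.00158 kb, adjusted exact permutation p = 1) or by day (+0.101 kb, adjusted exact permutation p = 0.495), and Cited1 was not tested.

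Tnfrsf9 (chr4:150914562-150946102, plus strand) was covered in all libraries, but its constant peaks lay at starts of Park7, the gene of the redox-protective protein DJ-1. Park7 and Camta1 reach into its window. Of its regions present in 24 libraries, chr4:150908743-150910688 had its median summit 0.034 kb from a Park7 start and at -4.97 kb (upstream) from the Tnfrsf9 start. The other, chr4:150913312-150915920, had its median summit 0.097 kb from a Park7 start and at -0.259 kb from the Tnfrsf9 start. A peak stood within 1 kb of the first Tnfrsf9 start in 24 libraries and of 9 of the 10 Park7 starts in 24, and within 1 kb of the other 7 Tnfrsf9 starts in 0. The length given for Tnfrsf9 thus includes sequence at Park7 starts far from its own. At chr4:150913312-150915920, near starts of both, which of these genes the mark belongs to cannot be told apart. Its covered length was 2.03 to 2.69 kb in the WT libraries and 1.78 to 3.64 kb in the DKO libraries. At day 9 WT had 2.32, 2.15 and 2.47 kb and DKO 2.54, 2.54 and 2.87 kb, so that DKO lay above WT without overlap (+0.335 kb, exact permutation p = 0.1), while scaling to covered length turned the difference to -0.0463 kb. Neither the genotype difference over 4 days (+0.0113 kb, adjusted exact permutation p = 1) nor the change to day 9 (-0.0435 kb, adjusted 0.964) passed, and both turned sign without DKO day 0 replicate 2 (-0.117 and +0.213 kb).

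Of the brown markers, Zic1 had no peak and Lhx8 had low peaks about its start. The Zic1 gene (chr9:91358058-91365810, minus strand) had its nearest peak 289 to 809 kb away, depending on the library. Lhx8 (chr3:154306294-154330659, minus strand) had 0, 1.66 and 0.389 kb in WT and 0, 1.80 and 0.514 kb in DKO at day 0. At day 3 it had 1.65, 1.49 and 0.657 kb in WT and 0.254, 1.56 and 0.451 kb in DKO. These groups overlapped widely, and the spread within each was as large as any gap between them. At day 6 WT had 1.07, 1.43 and 0.997 kb and DKO 0.636, 0.534 and 0.231 kb, without overlap (-0.699 kb, exact permutation p = 0.1). Scaled to covered length this was -0.294 kb, within the gene span alone -0.212 kb and within 1 kb of the start -0.355 kb, each with overlap (exact permutation p = 0.2, 0.4 and 0.3). The transcript AI606473 reaches into the window upstream of Lhx8. A region there, chr3:154332053-154332644, had its median summit 0.333 kb from an AI606473 start and was called in 3 WT and 1 DKO libraries at day 6. At day 9 WT had 0.912, 1.48 and 2.12 kb and DKO 1.75, 1.47 and 1.94 kb, with overlap.

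Lhx8 did not pass by genotype (-0.226 kb, adjusted exact permutation p = 0.873). Its change to day 9 was +0.885 kb (+0.821 kb in WT, +0.949 kb in DKO) with an adjusted exact permutation p of 0.131. That change passed in 3 other treatments of the data. Without DKO day 0 replicate 2 it was +1.14 kb (adjusted 0.0441, where 30.9% of genes were called higher), with 50 kb either side of the gene +2.72 kb (adjusted 0.0179, 17.8% called higher), and as highest fold +3.45 units (adjusted 0.0225). The fold counted 0 in libraries without a peak, and at day 0 only 2 of 3 libraries of each genotype held one. Its peaks were low: fold 3.95 to 8.31, 9 to 26 reads at the summit, and rank from 27.4% to 89.6% of the library's peaks. They stood within 1 kb of the start at 154330059 in 22 libraries and of the innermost start at 154324883 in 0.

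Epsti1 (chr14:77904239-78002657, plus strand) was the member called lower at day 9 than at day 0. At day 0 the WT libraries had 0.405, 0.372 and 0.416 kb and the DKO libraries 0.391, 1.45 and 0.791 kb, the 1.45 kb being the library of wide peaks. At day 3 WT had 0.297, 0.379 and 0 kb and DKO 0.198, 0.491 and 0.362 kb, and at day 6 the only value above 0 was 0.175 kb in WT replicate 3. At day 9 WT had 0, 0 and 0.220 kb and DKO 0.420, 0.167 and 0.301 kb. The peak at the gene start was present in all 6 day 0 libraries, in 1 of 6 at day 6 and in 4 of 6 at day 9, and its groups by genotype overlapped at each day. The libraries of days 0 and 9 did not overlap in WT (exact permutation p = 0.1) but did in DKO (exact permutation p = 0.2). In DKO the length rose by 0.296 kb between days 6 and 9, without overlap.

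The fall of Epsti1 from day 0 to day 9 was -0.453 kb (-0.324 kb in WT, -0.581 kb in DKO, adjusted exact permutation p = 0.0352), and -0.310 kb without DKO day 0 replicate 2 (adjusted 0.0357). The call was lost with summit windows (-0.250 kb, adjusted 0.397), number of peaks (adjusted 0.439), 1 kb about the start (adjusted 0.0905) and 50 kb either side (-1.21 kb, adjusted 0.0518). Its highest fold fell by 5.75 units (adjusted exact permutation p = 0.0344), and at day 0 stood at 9.44 ± 0.619 in WT and 10.3 ± 2.93 in DKO (SD, n = 3). At day 9 the fold was 2.07 ± 3.59 in WT and 6.19 ± 1.54 in DKO (SD, n = 3). Only 1 of 3 WT libraries held a peak then and the others counted as 0, so this fall in part counts absent peaks. Over 4 days DKO had 0.192 kb more than WT (0.381 against 0.189 kb; exact permutation p = 0.0351, adjusted 0.455), and without DKO day 0 replicate 2 it had 0.121 kb more (p = 0.06, adjusted 0.270, exact permutation). The white preadipocyte marker Tcf21 (chr10:22817281-22820174, minus strand) had no peak in any library, with the nearest 29.3 to 85 kb away.

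Counted over members, 3 of the 6 tested moved between days 0 and 9: Tbx1 and Tbx15 were called higher, where 16.4% of tested genes were, and Epsti1 lower, where 14.8% were. By highest fold, 4 members were called higher (Tbx15, Lhx8, Tbx1 and Tnfrsf9, where 26.9% of genes were) and Epsti1 lower (6.16%). For Lhx8, Tbx1 and Epsti1, libraries without a peak entered that measure as 0, so these fold calls in part count absent peaks. The median change of the 6 members was +0.432 kb, beside +0.0386 kb over all tested genes. The difference of the change between genotypes gave exact permutation p of 0.17 to 0.87 over the 6 members.

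By genotype at single days, the counts of members whose DKO and WT libraries did not overlap moved with the background. At day 0 they were 0 below and 0 above (0.704% and 18.4% of tested genes). At day 3 they were 1 below, Tbx15, and 0 above (10.8% and 0.862%). At day 6 they were 3 below, Tbx1, Lhx8 and Tbx15, and 0 above (59.6% and 0.0855%), and at day 9 they were 0 below and 1 above, Tnfrsf9 (2.08% and 29.3%). The members' median difference at day 6 was -0.506 kb beside -0.532 kb over all tested genes, and at day 9 it was +0.220 kb beside +0.226 kb.

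**Figure D4:**
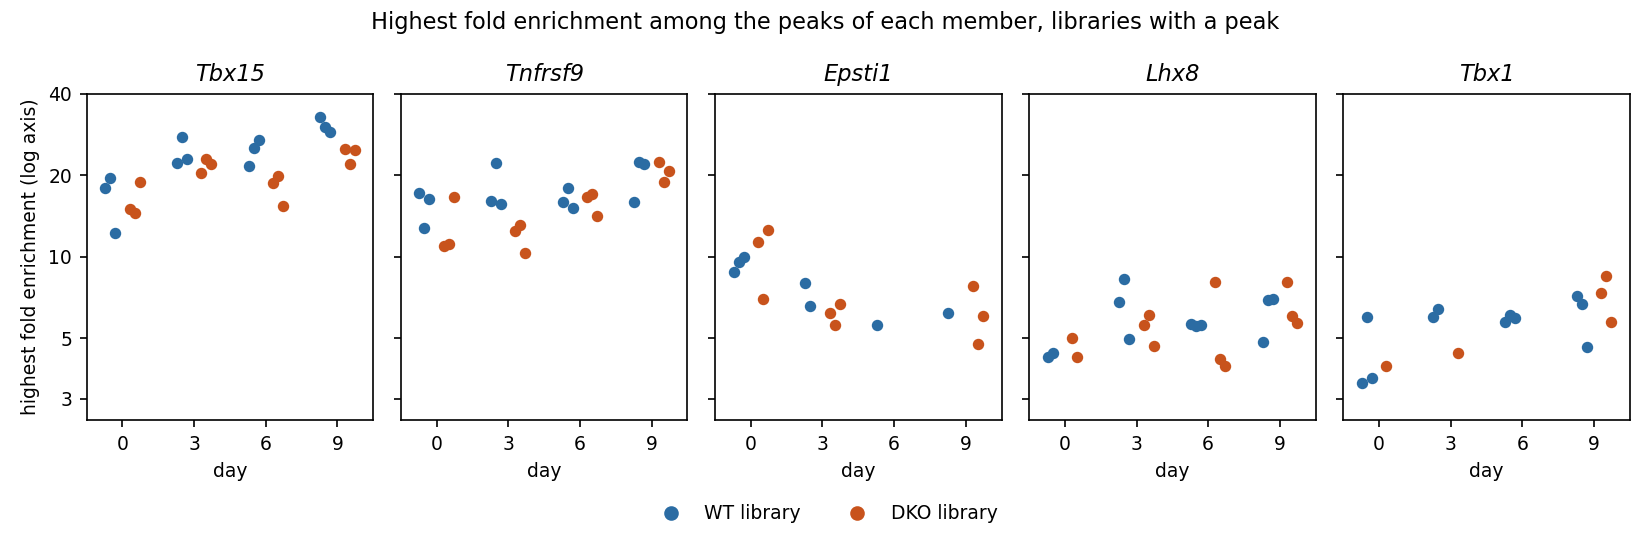
Highest fold enrichment over background in the windows of 5 members by day (log axis), with a point for each WT or DKO library that held a peak and none for the others. Tbx15 reaches 28.9 to 32.7 in WT and 22.0 to 24.9 in DKO at day 9, and Epsti1 lies at 7.02 to 12.6 at day 0 and has 1 point at day 6.

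The other markers of the same classes, taken from lists of known genes, gave no genotype call either. Their calls by day stand beside 16.4% of all tested genes called higher at day 9 and 14.8% called lower, which holds for the cell type markers too. Of 9 other beige markers, all tested, Slc36a2, an amino acid transporter, was called higher at day 9 (+4.30 kb) and the immune receptor gene Cd40 (-2.35 kb) and the tetraspanin gene Cd81 (-2.33 kb) lower, each with an adjusted exact permutation p of 0.0203. Of 10 other brown markers, 9 were tested, 4 rose, led by the factor Ebf3 (+5.16 kb), Fbxo31 (+2.97 kb) and the kinase gene Pdk4 (+1.90 kb), and 0 fell, and Myf5, the early muscle and brown lineage factor, had no peak. Of 10 other white markers, 8 were tested, 4 rose, led by the angiotensinogen gene Agt (+3.10 kb), the resistin gene Retn (+3.10 kb) and the corepressor gene Nrip1 (+3.02 kb), and 0 fell. Of 14 other genes of the members' families (T-box, ZIC, LIM-homeobox and CITED) 5 were tested, only Tbx18 rose (+1.11 kb, adjusted exact permutation p = 0.0481), and 8, among them Zic2 to Zic5 and Tbx4, had no peak in any library. The largest genotype differences in the 4 lists by value were Shox2 at -2.75 kb and Ebf3 at -1.18 kb, with Shox2 at an adjusted exact permutation p of 0.203.

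Marker genes of cell types moved with the days as well. The 6 adipocyte markers were all called higher at day 9, their summed length going from 6.29 to 8.62 kb to 49.9 to 59.6 kb in WT and from 8.72 to 21.4 kb to 79.2 to 83.7 kb in DKO. Of 4 tested immune markers, 3 were lower at day 9 (Csf1r, Ptprc and Adgre1), with sums of 18.5 to 20.4 kb at day 0 and 6.12 to 7.88 kb at day 9 in WT and 22.3 to 45.2 and 8.86 to 10.6 kb in DKO, and Cd3e was at 0 in all libraries. Of 4 tested endothelial markers 3 were lower, with sums of 6.62 to 7.27 and 2.69 to 4.32 kb in WT and of 7.36 to 16.1 and 4.11 to 5.72 kb in DKO. Of 6 tested fibroblast and preadipocyte markers 1 was lower (Col1a1) and 1 higher (Cd34), 0 of 4 mesothelial markers were called, and Myod1, Myog and Pax7 of muscle had no peak. Acta1, also of muscle, held a peak in 7 libraries and was not called (+0.360 kb, adjusted exact permutation p = 0.0585). At day 9 Acta1 was higher in DKO without overlap (0.561 against 0.159 kb), as in 29.3% of tested genes. At day 6, all 6 fibroblast and preadipocyte markers were lower in DKO without overlap, with WT sums of 45.3 to 47.1 kb against DKO sums of 12.3 to 19.4 kb, where 59.6% of all tested genes were lower. The adipocyte markers then summed to 68.1 to 72.9 kb (WT) against 47.0 to 68.8 kb (DKO), with 2 of 6 lower without overlap. The part of these cell type markers in the day 6 differences of Tbx15, Tbx1 and Lhx8, in the fall of Epsti1 and in the rise of Tbx1 and Tbx15 was not tested.

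Across the 24 libraries, the genes whose covered length was most like that of Tbx15 were Layn (Pearson r = 0.954), Cdh2 (0.951) and Lpar1 (0.949), and those most like Lhx8 were Rnd3 (0.869), Glt8d2 (0.860) and Nt5e (0.830). These correlations describe libraries that share genotype, day and covered length.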

How the data were processed

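H3K27ac ChIP-seq libraries (75 bp single reads) were made and processed by the authors, who per the labels used bcl2fastq 2.17, Cutadapt 1.18, BWA (version given as 07.17), mm10 and MACS2 2.1.1.20160309. A peak list was called and deposited for each of the 24 libraries. Which input served as control is not given in the sources used here, and the 16 input libraries are not analysed here. From the deposited peak lists were taken the positions, the fold enrichment at the summit (a ratio) and −log10 q values, which the authors wrote with MACS2. Columns of −log10 p and fold gave back whole summit reads for 99.6% to 100% of peaks (within 0.002), and background reads per kb served as depth. Reads are not independent molecules, and counting error was not modelled.

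Peaks overlapping a GENCODE M21 gene span with 5 kb upstream by at least 1 bp were joined within each library and summed as covered kb. Genes with a peak in at least 3 libraries were tested by exact two-sided permutation of libraries (numpy 2.4.6, scipy 1.17.1, numba 0.67.0; Python 3.11.15). Genotype labels were permuted within days (160000 relabellings, smallest p 1.25e-05), days 0 and 9 within genotypes (400, smallest p 0.005) and genotype at 1 day (20, smallest p 0.1). P-values were adjusted by Benjamini-Hochberg over 15204 genes at 0.05. The code was tested on simulated data. Identical peak intervals in pairs of libraries were at most 0.0164% of peaks, so that all were counted as separate libraries. All 9 members are named, with the targeted genes, up to 3 genes of each other list past a test with the largest changes (otherwise up to 2 by value), and the 3 genes of highest correlation with each of the 2 members of widest range. List genes without a peak were named after their values were seen. Members and lists were chosen with earlier results of these data known. Alternatives changed the peak threshold, peak width, window, scaling, measure, gene filter, libraries and replicate block.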

Additional observations from a re-analysis of the deposited data

How the results depend on the processing

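Over the alternative treatments of the data, 187 values of single members stayed on their side of the threshold with the same direction, 38 lost a call or an absence of overlap, 5 gained one and 25 turned sign. The cause was not tested. Members called higher at day 9 (2) were 1 with −log10 q of at least 5, 4 by highest fold, 3 with 50 kb either side or without DKO day 0 replicate 2, and 0 with the 20000 highest peaks, summit windows, windows of 1 kb about the start, number of peaks or the replicate block. Those called lower (1) were 0 with summit windows, 50 kb either side, 1 kb about the start, number of peaks or the block. Leaving out a replicate number from all groups gave 0 to 0 for both, and no gene passed at all, since the relabellings left cannot reach the threshold for the days. Genotype calls, lower in DKO (0), were 1 by highest fold and 1 without DKO day 0 replicate 2.

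Members below WT at day 0 (0) were 1 with summit windows, number of peaks or without DKO day 0 replicate 2, 2 when scaled, and 0 to 1 without a replicate, as were those above. At day 3 (1 below) they were 0 with −log10 q of at least 5, summit windows, 50 kb, 1 kb, scaling or number of peaks, 2 without WT day 3 replicate 3, and 1 to 3 without a replicate. At day 6 (3 below, 0 above) they were 1 below with the 20000 highest peaks or 1 kb, 2 with the gene span alone, summit windows, number of peaks or highest fold, 5 with 50 kb, and 1 below (Tbx1, at 0 in DKO on either scale) and 1 above when scaled. At day 9 (0 below) they were 1 with the 20000 highest peaks, 1 kb, scaling or highest fold, and 0 to 1 without a replicate. Above WT at day 9 (1) they were 2 with −log10 q of at least 5 or 50 kb, 0 with the 20000 highest peaks, summit windows, 1 kb, scaling, number of peaks or highest fold, and 1 to 3 without a replicate.

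Signs turned mostly for Tnfrsf9. Its genotype difference was -0.0523 kb with the 20000 highest peaks, -0.290 kb with summit windows, -1.28 kb with 50 kb, -0.00117 kb with 1 kb, -0.5 peaks, -2.09 in fold, -0.155 to 0.1485 kb without a replicate and -0.117 kb without DKO day 0 replicate 2. Its change to day 9 was +0.242, +5.89 (50 kb) and +0.0432 kb (1 kb), +6.23 in fold, -0.2605 to +0.277 kb without a replicate and +0.213 kb without DKO day 0 replicate 2, and its day 9 difference -0.032 kb with summit windows and -0.0463 kb scaled. Tbx15 was higher in DKO with summit windows (+1.12 kb at day 3, +0.589 kb at day 6) and by number of peaks (+2.33 at both days, +0.0833 over 4 days). Tmem26 was at -0.282 kb with 50 kb, -0.0132 kb scaled, -0.0493 in fold and -0.023 to 0.02538 kb without a replicate.

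Over all genes, genotype calls ran from 0 to 865 lower (19) and 0 to 1394 higher (4), both highest when scaled, and day 9 calls from 0 to 3334 lower (2253) and 0 to 4696 higher (2488). Scaling moved the day 6 background to 14.36% lower and 37.79% higher.

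The replicate numbers showed no steady pairing of the libraries: deviations of same-numbered libraries correlated at -0.837 to 0.898 between genotypes (over 0.1 in 4 of 12 pairs) and at -0.717 to 0.712 between days 0 and 9 (3 of 6). With 3 libraries per group this check cannot exclude a pairing. With the replicate block, the changes of Tbx1, Tbx15 and Epsti1 kept their values with adjusted exact permutation p of 0.101, 0.101 and 0.155, where 64 relabellings allow no p under 0.0312, and no gene was called.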
